A study of Mus musculus with 12 samples.

Results

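A set of 33 genes that neutrophils are known for was taken from the 54109 gene IDs of the count table by symbol, and each of the 33 was found. The list was split by the stage at which neutrophils are known to transcribe each gene. It holds 12 granule and other genes of immature cells, of which 4 encode primary granule proteases and peroxidase and 8 are known from myelocytes, and 21 genes of mature cells. The mature set holds 8 secreted or cytosolic proteins, 8 surface receptors and 5 enzymes and regulators. Bulk RNA was measured in 12 mouse libraries, 3 each from full colon of wild-type mice (colon WT), full colon of Gpr15l-/- mice (colon KO), and LPMCs of either genotype (LPMC WT, LPMC KO). LPMC usually stands for lamina propria mononuclear cells, a cell suspension made from the gut wall under the epithelium. How many neutrophils the preparation kept was not measured here, so LPMC levels need not be those of the intact tissue. All 4 groups came from acute colitis caused by dextran sulfate sodium (DSS), so that the wild-type groups are inflamed controls and untreated gut was not analysed here. The labels used here give no sex, age or strain, and do not tell whether each library is a separate animal, so p-values measure only the spread between libraries. Gpr15l encodes a secreted ligand of GPR15, a homing receptor of lymphocytes.

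Neutrophils mature in the bone marrow in steps, and each step has its own genes. Promyelocytes transcribe the primary granule genes Mpo (myeloperoxidase), Elane (neutrophil elastase), Ctsg (cathepsin G) and Prtn3 (proteinase 3), and myelocytes then transcribe secondary granule genes such as Ltf (lactoferrin), Camp (cathelicidin) and Ngp (neutrophilic granule protein). Cells that have reached an inflamed tissue still carry these proteins but have largely stopped making their mRNA, and instead hold mRNA for S100a8 and S100a9 (the 2 subunits of calprotectin), Retnlg (resistin-like gamma) and receptors for bacterial and inflammatory signals. Influx of neutrophils into the mucosa is a known feature of DSS colitis. Several of the 33 genes are also made by other cells (Acod1, Chil3 and Clec4e by monocytes and macrophages, Lrg1 and Mxd1 by many cell types), so the list is named for the cells its genes are known from.

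The sequences just upstream of 5 genes are shown because their levels behaved in different ways. Retnlg, S100a9, Clec4e and Trem1 shared their lowest colon library (KO 2) and their 2 highest LPMC libraries (KO 1 and KO 3), whereas Ly6g was not above WT in LPMC KO 1 and KO 3. The windows are from RefSeq (GRCm38.p6), on the strand of the gene, and hold the 250 bases before its annotated start, cut short before the first annotated exon base for Ly6g. Capitals mark matches on either strand to TTGCNNAA, a form of the motif of C/EBP factors, or to AGGAAGT, a form of the motif of PU.1. Both factors are known regulators of granulocyte genes.
Retnlg, chr16:48872358-48872607 (plus strand): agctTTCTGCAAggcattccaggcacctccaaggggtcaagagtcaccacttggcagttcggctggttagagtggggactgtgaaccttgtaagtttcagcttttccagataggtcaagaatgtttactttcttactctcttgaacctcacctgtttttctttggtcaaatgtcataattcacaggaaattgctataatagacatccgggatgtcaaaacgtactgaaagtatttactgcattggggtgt
S100a9, chr3:90695722-90695971 (minus strand): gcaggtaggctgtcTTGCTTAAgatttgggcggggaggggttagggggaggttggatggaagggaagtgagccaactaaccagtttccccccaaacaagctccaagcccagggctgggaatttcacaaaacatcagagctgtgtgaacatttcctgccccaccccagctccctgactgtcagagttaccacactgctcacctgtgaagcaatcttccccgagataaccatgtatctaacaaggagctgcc
Clec4e, chr6:123289872-123290121 (minus strand): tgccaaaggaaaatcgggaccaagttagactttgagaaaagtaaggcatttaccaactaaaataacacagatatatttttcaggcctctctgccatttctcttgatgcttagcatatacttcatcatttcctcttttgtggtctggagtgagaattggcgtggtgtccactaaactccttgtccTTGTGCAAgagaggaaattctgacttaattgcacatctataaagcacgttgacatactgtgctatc
Trem1, chr17:48232489-48232738 (plus strand): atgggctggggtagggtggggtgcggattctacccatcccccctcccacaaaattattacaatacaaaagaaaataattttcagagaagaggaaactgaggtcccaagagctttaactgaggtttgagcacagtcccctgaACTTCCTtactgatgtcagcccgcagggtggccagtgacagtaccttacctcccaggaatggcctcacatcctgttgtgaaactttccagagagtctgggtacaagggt
Ly6g, chr15:75155011-75155239 (plus strand): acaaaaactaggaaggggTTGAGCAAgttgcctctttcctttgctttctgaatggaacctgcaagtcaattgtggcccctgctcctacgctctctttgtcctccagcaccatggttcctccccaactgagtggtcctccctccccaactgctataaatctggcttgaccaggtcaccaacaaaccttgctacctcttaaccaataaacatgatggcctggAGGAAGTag
Retnlg, S100a9, Clec4e and Ly6g each held a TTGCNNAA match, and Trem1 and Ly6g held AGGAAGT. Of the 33 genes, 29 had a window in the table. TTGCNNAA was found for 7 of the 29 and in 9.56% of all 32851 windows of the same length. AGGAAGT was found for 12 of the 29 and in 7.69% of all windows. None of the matches shown overlap, and a match describes the letters only.

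The libraries held 45372585 to 140682087 counts. Levels are given in CPM, which are counts scaled to a common library total with TMM factors. On this scale 3 counts corresponded to 0.0201 to 0.0697 CPM. The deleted gene, listed as 2610528A11Rik, had 15639 to 80362 counts in the 6 WT libraries and 4 to 20 in the 6 KO libraries, which matches the labels. The LPMC libraries were not free of epithelial RNA: the summed level of 8 epithelial markers was 12200 to 21800 CPM there and 13100 to 28700 CPM in colon. None of those 8 markers was at 0 throughout. The 5 red blood cell genes of the marker list summed to 351 to 1780 CPM in LPMC and to 4.44 to 41.5 CPM in colon. Colon KO 2 had the lowest sum of 12 monocyte and macrophage markers in colon (113 CPM, with 149 to 292 CPM in the other 5) and the highest epithelial sum (28700 CPM, with 13100 to 20500 CPM in the others). LPMC KO 2 had the lowest monocyte and macrophage sum in LPMC (119 CPM), while LPMC KO 1 and LPMC KO 3 had the 2 highest (382 and 424 CPM). In bulk RNA, fewer neutrophils, less of a transcript per neutrophil and a different amount of RNA from other cells cannot be told apart. This holds for every level given below. Colon KO 2, for instance, held 2 counts of Retnlg beside 15119 of Ly6g, 20109 of Cd177 and 47937 of Pglyrp1. Which cells these counts came from was not tested.

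Of the 4 primary granule genes, Mpo, Elane and Ctsg were near the limit of detection. Mpo (chromosome 11) had 0 to 20 counts per library, Elane (chromosome 10) 0 to 10 and Ctsg (chromosome 14) 0 to 10. Prtn3, next to Elane on chromosome 10, reached higher counts (0 to 120, with 120 in LPMC KO 1 and 67 in LPMC KO 3). It overlaps Plppr3, which lies on the opposite strand and had 7818 counts in all against 447 for Prtn3, so that the source of its reads is uncertain where the counting did not use strand. By library, the 4 genes together gave 0.519, 0.186 and 0.0287 CPM in colon WT, 0.409, 0.0979 and 0.616 CPM in colon KO, 0.657, 0.625 and 0.117 CPM in LPMC WT, and 1.12, 0.292 and 1.09 CPM in LPMC KO. LPMC KO 1 and LPMC KO 3 were the 2 highest libraries, and most of their counts were those of Prtn3. Elane, Ctsg, Fcnb and Stfa2 did not pass the filter on low counts in any comparison, and Mpo did not in colon alone.

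Several of the myelocyte genes were low as well. Camp (an antimicrobial peptide precursor) stayed between 0 and 0.931 CPM, and Fcnb (ficolin B, a lectin of the complement system) between 0 and 0.0762 CPM. Ngp was at 2.03, 0.557 and 0.0287 CPM in colon WT and at 0.323, 0.0653 and 2.00 CPM in colon KO. In LPMC, Ngp was at 2.88, 1.35 and 6.28 CPM in WT and at 34.8, 2.41 and 8.55 CPM in KO, so that 1 library, LPMC KO 1, stood well above all others. The same library was highest for Camp (0.931 CPM) and, within LPMC, for Chil3 (a chitinase-like protein, 43.0 CPM against 2.28 to 16.0 CPM in the other 5).
Ltf was at 28.2, 149 and 32.2 CPM in colon WT and at 24.8, 4.47 and 58.1 CPM in colon KO. In LPMC it was at 1.26, 0.958 and 1.29 CPM in WT and at 10.8, 1.02 and 0.868 CPM in KO. All 6 colon libraries except colon KO 2 lay above every LPMC library. Cd177 (a surface glycoprotein of neutrophils) and Pglyrp1 (a peptidoglycan-binding granule protein) were far more abundant. Cd177 reached 87.1 to 369 CPM in colon and 281 to 737 CPM in LPMC, and Pglyrp1 reached 479 to 1033 CPM in colon and 132 to 208 CPM in LPMC. Itgb2l, an integrin beta chain related to Itgb2, was at 3.48 to 12.9 CPM in colon and 0.343 to 2.99 CPM in LPMC.

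**Figure D1:**
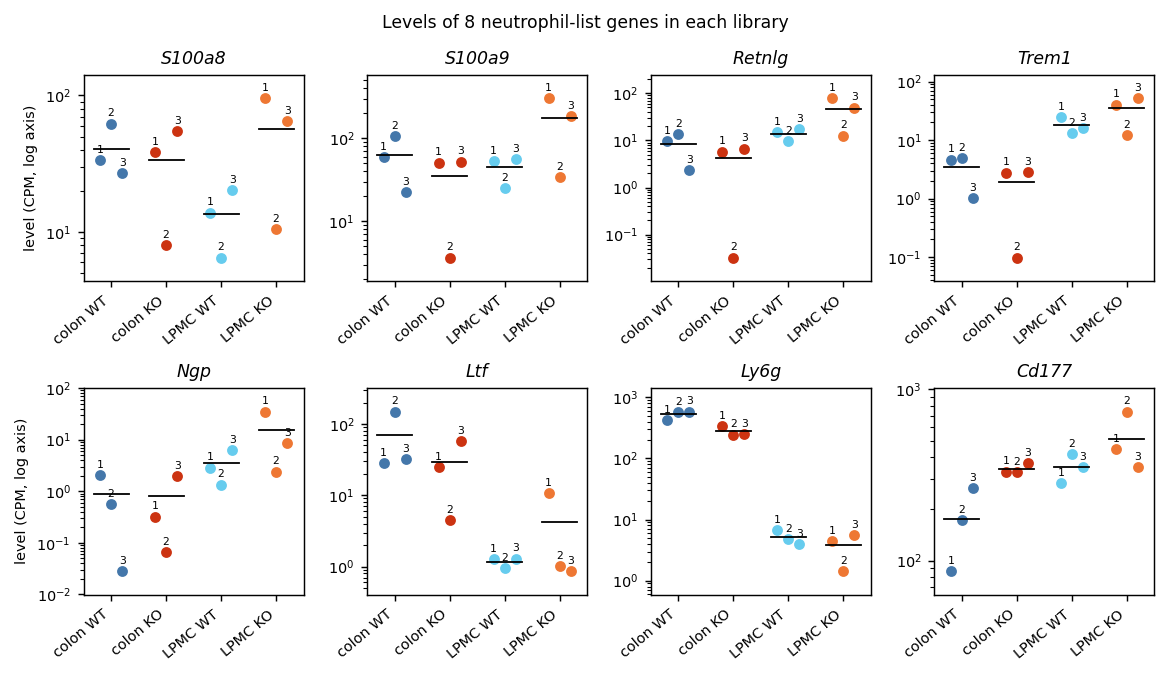
Level of 8 of the genes in each of the 12 libraries (y axis, CPM, log axis, scaled per panel) by group (x axis); numbers are the replicate numbers of the labels and bars are group means. For S100a8, S100a9, Retnlg and Trem1, LPMC KO 1 and LPMC KO 3 lie above every LPMC WT library and LPMC KO 2 does not, and colon KO 2 is the lowest colon library, while Ly6g and Cd177 do not lie above WT in both LPMC KO 1 and LPMC KO 3.

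S100a8, S100a9 and Retnlg are among the most abundant mRNAs known from mature neutrophils. S100a9 (chr3:90692632-90695721) was at 59.7, 106 and 22.6 CPM in colon WT and at 50.7, 3.64 and 52.1 CPM in colon KO. The LPMC levels were 52.7, 25.1 and 55.9 CPM in WT and 302, 33.6 and 185 CPM in KO. S100a9 was therefore lowest in colon KO 2 and highest in LPMC KO 1 and LPMC KO 3, and the ranges of WT and KO overlapped in both tissues.
Its partner S100a8 (chr3:90668978-90670035) was at 33.5, 62.1 and 26.9 CPM in colon WT and at 38.7, 7.99 and 54.8 CPM in colon KO. LPMC libraries held 13.9, 6.49 and 20.4 CPM in WT and 95.1, 10.5 and 64.9 CPM in KO. Colon KO 2 and LPMC WT 2 were the lowest libraries of their tissue for both genes, and LPMC KO 1 and LPMC KO 3 the highest in LPMC.
The 2 subunits did not keep the same ratio in both tissues. Per kilobase of annotated exon, the level of S100a9 was 0.605 to 2.37 times that of S100a8 in the 6 colon libraries and 3.65 to 5.14 times in the 6 LPMC libraries, so that the ranges did not overlap. The lowest ratio was that of colon KO 2.
Retnlg (chr16:48872621-48874496) was at 9.55, 13.8 and 2.35 CPM in colon WT and at 5.78, 0.0326 and 6.66 CPM in colon KO. In LPMC it was at 14.7, 9.50 and 17.2 CPM in WT and at 77.6, 12.6 and 49.5 CPM in KO. Retnlg was thus nearly absent from colon KO 2, at a level under that of 3 counts.

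The remaining secreted genes were of 2 kinds. Asprv1, an aspartic protease, was at 1.54 to 3.74 CPM in colon, at 2.07 to 2.98 CPM in LPMC WT, and at 21.5, 2.08 and 10.3 CPM in LPMC KO. Stfa2l1 and Stfa2 are stefins, inhibitors of cysteine proteases from a cluster of near-identical genes among which reads may be divided. Stfa2l1 reached 2.10 CPM at most (LPMC KO 1) and Stfa2 0.48 CPM (the same library). Hp (haptoglobin) was at 7.59 to 72.4 CPM in colon and at 15.3 to 105 CPM in LPMC, again with LPMC KO 1 highest. Lrg1, a leucine-rich glycoprotein that liver and other tissues also make, behaved otherwise, with 178 to 789 CPM in colon and 50.9 to 117 CPM in LPMC.

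Ly6g (chr15:75155240-75159126) encodes the surface antigen by which mouse neutrophils are usually identified. It was at 426, 569 and 583 CPM in colon WT and at 338, 246.6 and 247.5 CPM in colon KO. The LPMC levels were 6.66, 4.83 and 3.92 CPM in WT and 4.43, 1.45 and 5.64 CPM in KO. Every colon library lay far above every LPMC library, and the colon KO libraries all lay below the colon WT libraries.
Ly6g, like most mature genes, had its lowest colon library in KO 2 and its lowest LPMC library in KO 2, but it was not above WT in LPMC KO 1 and KO 3. Colon KO 2, where Retnlg was at 0.0326 CPM, held 246.6 CPM of Ly6g, close to KO 3, and LPMC KO 1, the library with the most Retnlg and S100a9, held 4.43 CPM. Per kilobase of exon, Ly6g was first of the 33 genes in colon WT (558 CPM per kb), before Pglyrp1 (496) and Lrg1 (451), with S100a9 at 120. In LPMC KO the order began with S100a9 (332 CPM per kb), Cd177 (180), Pglyrp1 (99.7), S100a8 (81.9) and Retnlg (78.5). Ly6g belongs to a family of related Ly6 genes, and the sources used here do not give how shared reads were counted.

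All 7 other receptors had a higher fitted level in LPMC than in colon in both genotypes. Clec4e (Mincle, a receptor for mycobacterial and damaged-cell glycolipids) was at 13.3, 6.41 and 1.05 CPM in colon WT and at 7.31, 0.522 and 6.91 CPM in colon KO. LPMC libraries held 78.4, 45.5 and 60.8 CPM in WT and 87.0, 30.1 and 132 CPM in KO. Its groups did not overlap between tissues, and LPMC KO 2 was the lowest LPMC library.
Trem1, which amplifies inflammatory signalling, was at 4.64, 4.92 and 1.03 CPM in colon WT and at 2.79, 0.0979 and 2.84 CPM in colon KO. In LPMC it was at 24.9, 13.3 and 16.2 CPM in WT and at 40.6, 12.2 and 51.6 CPM in KO. Its neighbour Trem3 had 0 counts in colon KO 2, where 3 counts would give 0.0489 CPM, and at most 3.18 CPM (LPMC KO 3).
Clec4d, a lectin receptor encoded next to Clec4e, Fpr1 and Fpr2, the formyl peptide receptors, and Hcar2, a receptor for nicotinic acid and butyrate, had the same extremes: for each of them LPMC KO 1 or LPMC KO 3 was the highest of the 12 libraries and LPMC KO 2 the lowest LPMC library.
Among enzymes and regulators, Acod1 (the enzyme that makes itaconate) was at 28.0, 27.2 and 2.61 CPM in colon WT and at 15.2, 0.718 and 13.7 CPM in colon KO. The LPMC levels were 160, 90.6 and 129 CPM in WT and 253, 51.0 and 227 CPM in KO. Padi4, the histone-citrullinating enzyme of neutrophil extracellular traps, stayed at or below 5.48 CPM. Alox5ap (needed for leukotriene synthesis) was at 1.09 to 5.39 CPM in colon and 6.21 to 22.3 CPM in LPMC. G0s2, an inhibitor of triglyceride lipase, was at 0.652 to 6.87 and 6.95 to 32.5 CPM, and it overlaps Lamb3 on the opposite strand, which had 186223 counts against 11509 for G0s2. Mxd1, a MYC antagonist, was of the Lrg1 kind, with 622 to 1124 CPM in colon and 106 to 223 CPM in LPMC.

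Most of the list shared its high and low libraries, which are counted here as a description made after the values were seen. In colon, KO 2 was the lowest library for 18 of the 33 genes, and for 16 of the 21 genes of mature cells, whereas colon WT 1 was the highest for 13 and colon WT 2 for 10. Among the genes that passed the filter, KO 2 was lowest for 18 of 28, beside 23.4% of all genes tested, and WT 1 and WT 2 were each highest for 10 of 28, beside 13.5% and 22.3% of all genes. In LPMC, KO 1 and KO 3 both lay above every WT library for 23 of the 33 genes, among them 19 of the 21 of mature cells, all but Lrg1 and Ly6g. LPMC KO 2 was above the WT libraries for none of those 23, and it was the lowest LPMC library for 15 of the 21 mature genes. Among the genes that passed the filter, KO 1 and KO 3 were both above WT for 21 of 29, beside 10.9% of all genes tested, and KO 2 was lowest for 15 of 29, beside 18.2% of all genes. Of the 12 immature-cell genes, 4 (Ctsg, Prtn3, Ngp and Itgb2l) were above WT in both LPMC KO 1 and LPMC KO 3.
Markers of some other cells moved with the same libraries. In LPMC the monocyte and macrophage sum was 382 and 424 CPM in KO 1 and KO 3, 119 CPM in KO 2 and 126 to 257 CPM in WT. The sum of 8 T cell markers was 196 and 131 CPM in KO 1 and KO 3, 45.4 CPM in KO 2 and 72.3 to 111 CPM in WT, and 6 B cell markers followed the same order (258 and 206 CPM, 43.5 CPM and 58.7 to 159 CPM). The epithelial sum was highest in KO 2 (21800 CPM, with 12200 to 16900 CPM in the other 5). No marker of these 4 lists was at 0 in all libraries. Mast cell and endothelial markers did not follow this order. The mast cell sum was 127 and 143 CPM in KO 1 and KO 3, 183 CPM in KO 2 and 97.8 to 125 CPM in WT. The endothelial sum was 130 and 307 CPM in KO 1 and KO 3, 143 CPM in KO 2 and 186 to 343 CPM in WT. The part of these differences in the neutrophil gene levels was not tested.

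**Figure D2:**
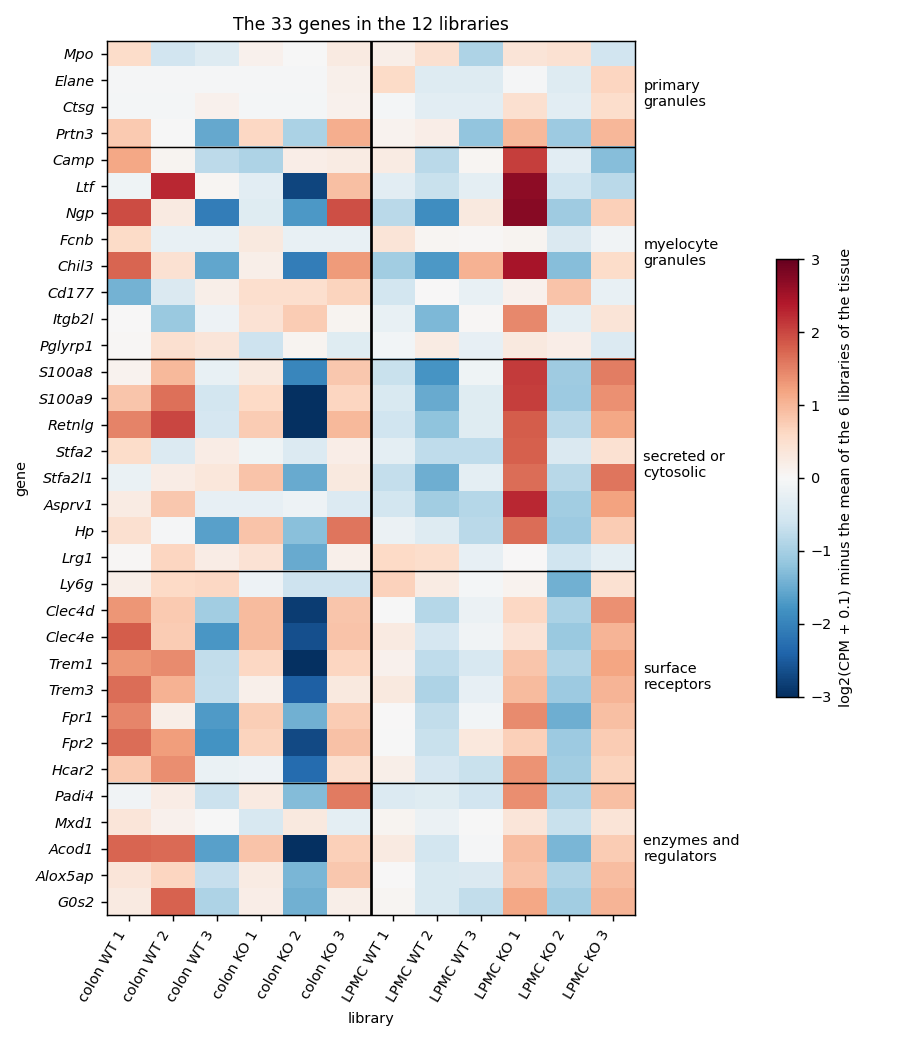
Each of the 33 genes (rows, by role) in each library (columns), as log2(CPM + 0.1) minus the mean of the 6 libraries of the same tissue, with colours held at 3 above and below 0; red is above and blue below that mean. Colon KO 2 is blue for most genes of mature cells, and in LPMC the columns of KO 1 and KO 3 are red and that of KO 2 is blue for most genes of mature cells, with Lrg1 and Ly6g among the exceptions.

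In colon, none of the neutrophil genes passed the test between KO and WT. Of the 33 genes, 28 passed the filter on low counts, and 0 of the 28 had an adjusted p under 0.05 in edgeR's quasi-likelihood test, beside 0.00518% of all 19303 genes tested. DESeq2 also called 0 of them, and 3 of the 28 had an unadjusted p under 0.05, beside 7.79% of all genes. The log2 fold changes were negative for 22 and positive for 6, with a median of -0.49 beside a median of 0.01 for all genes tested. The median was -0.58 over the 20 mature genes tested and -0.30 over the 8 immature ones. All 8 receptors had negative values (-1.41 to -0.21). Without colon KO 2 the mature median was -0.26 and the immature median 0.21, and without colon WT 1 the immature median was 0.62, so the direction of the immature set depended on single libraries.
Ly6g had the lowest p: its log2 fold change was -0.94 (SE 0.22, unadjusted p = 0.0032 and adjusted p = 0.632 by edgeR). Its 3 KO libraries lay below its 3 WT libraries, which was the case for 1 of the 28 genes and for 6.53% of all genes tested. Cd177 differed the other way, with 87.1, 173 and 263 CPM in WT and 330, 328 and 369 CPM in KO (log2 fold change 0.97, SE 0.36, unadjusted p = 0.032, adjusted p = 0.632 by edgeR). Itgb2l was also above WT in all 3 KO libraries (7.70, 3.48 and 6.82 CPM in WT, 10.4, 12.9 and 8.04 CPM in KO; 0.79, SE 0.37, adjusted p = 0.636 by edgeR). Groups without overlap and higher in KO were thus seen for 2 of the 28 genes, beside 7.78% of all genes. Pglyrp1 was at 752, 1033 and 949 CPM in WT and at 479, 782 and 575 CPM in KO, with an overlap of 1 library (-0.59, SE 0.25, adjusted p = 0.632 by edgeR). Asprv1 followed (-0.64, SE 0.37, adjusted p = 0.67 by edgeR).
The granule genes Ltf, Camp and Ngp had log2 fold changes of -1.27 (SE 0.95), -0.70 (SE 0.90) and -0.15 (SE 1.40). Those of S100a8, S100a9 and Retnlg were -0.29 (SE 0.64), -0.84 (SE 0.91) and -1.06 (SE 1.29). Of these 6 values only that of Ltf was larger than its SE.
Markers of other cells also differed between the colon groups without passing the test. All 8 T cell markers were lower in KO (median log2 fold change -1.40). Of these, 5 were without overlap, beside 6.53% of all genes tested that were lower without overlap. All 6 B cell markers were lower too (median -5.27), with a sum of 704 CPM in colon WT 1 and at most 15.4 CPM in the other colon libraries. All 6 smooth muscle markers were higher (median 0.96). The part of all these markers in the neutrophil gene values was not tested.

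In LPMC, most of the genes had higher mean levels in KO, and none passed the test. Of the 33 genes, 29 were tested, and 0 had an adjusted p under 0.05 by edgeR, beside 0.0103% of all 19426 genes tested (0.00515% higher and 0.00515% lower). DESeq2 called 0 as well, and 5 of the 29 had an unadjusted p under 0.05, beside 2.64% of all genes. The log2 fold change was positive for 27 and negative for 2 (Lrg1 -0.63, Ly6g -0.42), with a median of 0.95 beside -0.00412 for all genes tested. The median was 0.95 over the 20 mature genes and 1.20 over the 9 immature ones. It was 1.96 over the 7 secreted genes tested, 0.87 over the 8 receptors and 0.79 over the 5 enzymes and regulators.
The 5 genes with the lowest p were all of the secreted set. Stfa2l1 had a log2 fold change of 2.25 (SE 0.81, unadjusted p = 0.029), Asprv1 2.18 (SE 0.77), Retnlg 1.75 (SE 0.64), S100a9 1.96 (SE 0.77) and S100a8 2.07 (SE 0.82), each with an adjusted p of 0.998 by edgeR. LPMC KO 2 lay among the WT libraries for each of them. For none of the 29 genes were the 2 groups apart, beside 3.68% of all genes tested with all 3 KO libraries higher and 3.74% with all 3 lower. Without LPMC KO 2, the values of these 5 genes were 2.20 to 2.73 and the lowest adjusted p was 0.253 (Asprv1). Without LPMC KO 1 they were 1.19 to 1.91.
Among granule genes, Ngp had a value of 2.12 (SE 1.04), Ltf 1.84 (SE 1.01) and Camp 1.44 (SE 1.43). All 3 values depended on LPMC KO 1: without it, Ltf was at -0.30, Camp at -1.36 and Ngp at 0.67, and the immature median was 0.01 in place of 1.20. The mature median without that library was 0.59. Mpo, which with Prtn3 was 1 of the 2 primary granule genes tested, had a value of 0.17 (SE 1.01).

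**Figure D3:**
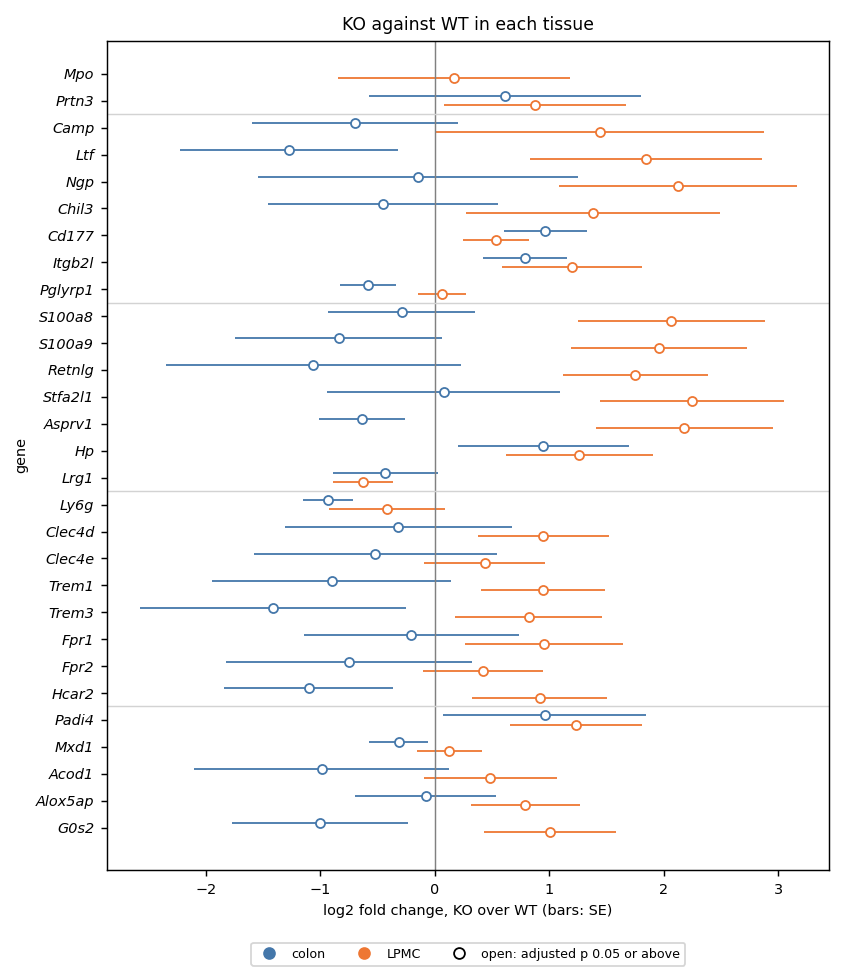
log2 fold change of KO over WT (x axis, bars are the SE from edgeR) for each gene tested in colon or LPMC (y axis, grouped by role). All points are open because no adjusted p was under 0.05; in LPMC 27 of 29 values lie right of 0, and in colon 22 of 28 lie left of it.

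The difference between the KO effects in the 2 tissues was itself tested in a model with all 12 libraries. Of the 29 genes tested 0 passed, beside 0% of all 20989 genes tested by edgeR, with 1 of the 29 at an unadjusted p under 0.05 (4.69% of all genes were), while DESeq2 called 3 of all genes and 0 of these. The difference was positive, meaning a larger value in LPMC, for 26 of 29, with a median of 1.24 beside -0.01 for all genes. Asprv1 had the lowest p (2.81, SE 0.87, unadjusted p = 0.0081, adjusted p = 0.902). The differences for S100a9 (2.78, SE 1.34), S100a8 (2.34, SE 1.14), Ltf (3.12, SE 1.56) and Hcar2 (2.00, SE 1.02) came next, each with an adjusted p of 0.902 by edgeR. Of the 28 genes tested in both tissues, 20 were below WT in colon KO and above WT in LPMC KO. Another 6 were above in both (Cd177, Hp, Itgb2l, Padi4, Prtn3 and Stfa2l1) and Lrg1 and Ly6g were below in both. Without both colon KO 2 and LPMC KO 1 the median difference was 0.62 over the mature genes in place of 1.34, and -0.09 over the immature genes in place of 0.65. Without LPMC KO 1 alone the immature median was -0.08 and the value of Ltf 0.95.

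Between tissues, some of the neutrophil genes were higher in colon and others in LPMC. In WT, 8 of the 29 genes tested had an adjusted p under 0.05, beside 35.4% of all 20989 genes tested, so the count was not above that over all genes. The 6 that were lower in LPMC (17.5% of all genes were) were Ly6g, Ltf, Itgb2l, Lrg1, Mxd1 and Pglyrp1, and the 2 that were higher (17.8% of all genes were) were Clec4e and Padi4.
Ly6g had the largest of these 8 differences, at -6.67 on the log2 scale (SE 0.49, adjusted p = 1.7e-05 by edgeR), a level 102-fold higher in colon. Ltf followed with -5.90 (SE 1.32, adjusted p = 0.00695). Itgb2l was at -2.99 (SE 0.56, adjusted p = 0.00256), Lrg1 at -2.70 (SE 0.44, adjusted p = 0.00128), Mxd1 at -2.56 (SE 0.29, adjusted p = 0.000184) and Pglyrp1 at -2.39 (SE 0.25, adjusted p = 0.00012). These 6 passed in each of the single-library omissions and with DESeq2. Clec4e was higher in LPMC WT by 3.15 (SE 1.00, adjusted p = 0.0328) and Padi4 by 2.46 (SE 0.83, adjusted p = 0.0401). Both calls were lost when any 1 of the 3 LPMC WT libraries was left out (adjusted p = 0.0513 to 0.0824), and Clec4e also without colon WT 2 (0.0918) or colon WT 3 (0.0742), and Padi4 also without colon WT 1 (0.0855), colon WT 2 (0.069), colon WT 3 (0.123), colon KO 1 (0.0536) or LPMC KO 3 (0.0549). Without the low-count filter neither passed (adjusted p = 0.0959 for Clec4e and 0.0518 for Padi4), and Padi4 did not with the replicate block (0.0566). The values for S100a8, S100a9 and Retnlg were -1.59 (SE 0.81), -0.49 (SE 0.93) and 0.69 (SE 1.11), none of which passed.

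In KO, 14 of the 29 genes passed between tissues, beside 28.1% of all genes tested. Ly6g (-6.17, SE 0.48, adjusted p = 1.94e-05, 72.2-fold), Lrg1 (-2.90), Itgb2l (-2.59), Mxd1 (-2.13) and Pglyrp1 (-1.74) were again lower in LPMC (13.6% of all genes were). The 9 genes higher in LPMC KO (14.5% of all genes were) were all of the mature set. The receptors among them were Trem1 (4.18, SE 1.02, adjusted p = 0.0135), Clec4e (4.07, SE 1.05, adjusted p = 0.0164), Hcar2 (3.55, SE 0.79, adjusted p = 0.00837) and Fpr1 (2.87). The enzymes and regulators were Acod1 (4.16, SE 1.12, adjusted p = 0.0203), G0s2 (3.74, SE 0.81, adjusted p = 0.00714), Alox5ap (2.30, SE 0.61, adjusted p = 0.0176) and Padi4 (2.71). Asprv1 was the secreted gene (2.71, SE 0.64, adjusted p = 0.0107).
Trem1, Clec4e, Hcar2, G0s2 and Asprv1 passed in each of the single-library omissions. Without the low-count filter, Clec4e (adjusted p = 0.0561), Acod1 (0.0682) and Fpr1 (0.0955) did not pass. Acod1 did not without colon KO 1, colon KO 3 or LPMC KO 3 (adjusted p = 0.0504 to 0.0509), and Alox5ap not without colon KO 1, LPMC KO 1 or LPMC KO 3 (0.0521 to 0.0605). Padi4 lost its call without colon KO 1 (0.0946), LPMC KO 1 (0.0951) or LPMC KO 3 (0.0723). Fpr1, whose adjusted p was 0.0443, lost it in 9 of the 12 omissions (0.0576 to 0.128). Retnlg (3.48, SE 1.22, adjusted p = 0.0552) and Ngp (4.23, SE 1.51, adjusted p = 0.0596) did not pass, although Retnlg did without colon KO 2 (0.0447) and Ngp without colon WT 3 (0.0432) or colon KO 3 (0.0408). Ltf, at -2.78 (adjusted p = 0.0916), passed without LPMC KO 1 (-4.95, adjusted p = 0.0183). Without both colon KO 2 and LPMC KO 1, 8 genes passed, 2 higher and 6 lower. Of all genes tested, 16.2% then passed, 8.77% higher and 7.46% lower.
Over both genotypes, 19 of the 29 genes were above colon in LPMC WT and in LPMC KO, 6 were below in both, and Asprv1, Camp, S100a8 and S100a9 were below in WT and above in KO. The 6 lower genes were in part of the immature set (Itgb2l, Ltf, Pglyrp1) and in part of the mature set (Lrg1, Ly6g, Mxd1). Which cells these transcripts came from was not tested. LPMC libraries also differed from colon in other cells, counted here as markers with an adjusted p under 0.05 by edgeR. The 5 red blood cell genes were all higher in both genotypes (medians of 7.09 and 5.22 on the log2 scale). Of 8 epithelial markers, 4 were called lower in WT and 3 in KO, while 6 and 5 had negative values. Called higher in LPMC were also 5 of 8 T cell markers in WT and 8 of 8 in KO (medians of 2.06 and 3.92). The same held for 6 of 8 mast cell markers in both genotypes (2.64 and 2.97) and 4 of 6 endothelial markers in both (1.95 and 1.69). Positive values were seen for all 8 T cell, 7 of 8 mast cell and all 6 endothelial markers in both genotypes. Monocyte and macrophage markers went both ways, with 2 of 12 called lower in WT and 1 called higher in KO (medians of -1.02 and 0.05). No B cell marker was called, with all 6 values negative in WT and all 6 positive in KO. Of 5 eosinophil markers tested, 2 were called higher in both genotypes, and no smooth muscle marker was called. Over all genes, 17.8% were called higher and 17.5% lower in WT, and 14.5% and 13.6% in KO. The part of these differences in the values above was not tested.

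**Figure D4:**
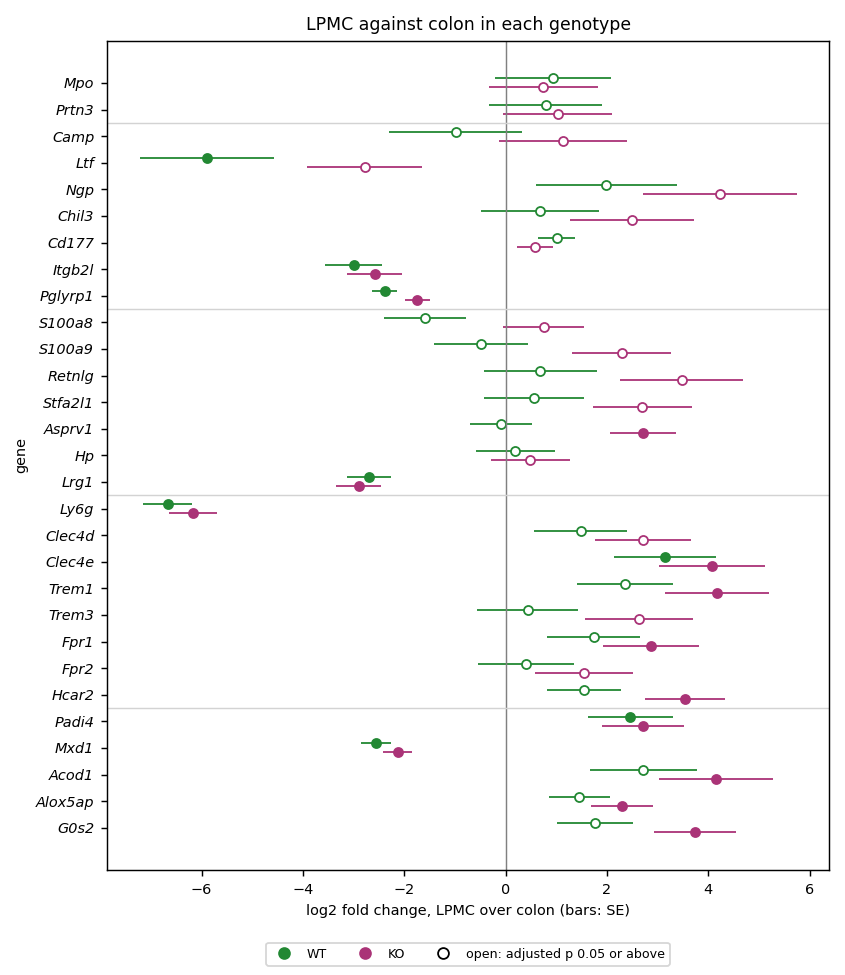
log2 fold change of LPMC over colon (x axis, bars are the SE from edgeR) in WT and in KO for the 29 genes tested (y axis, grouped by role); filled points have an adjusted p under 0.05. Ly6g lies at -6.67 and -6.17, and Itgb2l, Lrg1, Mxd1 and Pglyrp1 are filled left of 0 in both genotypes, whereas most receptors and enzymes lie right of 0.

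The 30 further neutrophil genes outside the 33 had values on the same sides of 0 in most cases. Between KO and WT, 0 of 24 tested in colon and 0 of 26 tested in LPMC passed by edgeR, beside 0.00518% and 0.0103% of all genes. At an unadjusted p under 0.05 were 1 and 2 of them, beside 7.79% and 2.64% of all genes. The medians of these further genes were -0.43 in colon (20 of 24 negative) and 0.75 in LPMC (25 of 26 positive). In colon the lowest p values were those of Cebpb, a C/EBP transcription factor (-0.90, SE 0.33, adjusted p = 0.632), Alox5, the 5-lipoxygenase (0.98, SE 0.42, adjusted p = 0.632), and Ncf4, a subunit of the NADPH oxidase (-1.70, SE 0.77, adjusted p = 0.636). In LPMC they were those of Mmp8, the neutrophil collagenase (1.99, SE 0.71), Mmp9, a gelatinase (1.65, SE 0.60), and Cxcr2, the chemokine receptor that draws neutrophils into tissue (1.86, SE 0.80), each with an adjusted p of 0.998. Mmp8 was at 5.79, 3.45 and 7.96 CPM in LPMC WT and at 36.7, 5.26 and 26.3 CPM in LPMC KO, with the same 2 KO libraries above WT as for Retnlg and S100a9. Between tissues, 5 of 26 passed in WT (35.4% of all genes did), 4 of them higher in LPMC, and 8 of 26 in KO (28.1% of all genes did), all higher in LPMC. Gfi1, a repressor needed to form neutrophils (2.03 in WT, 2.08 in KO), passed in both genotypes. So did Il1r2, a decoy receptor for interleukin 1 (2.90 and 3.60), and Selplg, a selectin ligand (2.33 and 3.50). Gfi1 did not follow Mmp8 across the LPMC KO libraries. KO 1, KO 2 and KO 3 held 3597, 3590 and 1679 counts of Gfi1, beside 5047, 433 and 1998 of Mmp8. Muc2, an epithelial marker, had 676908, 1000134 and 303143 counts there. The library totals were 130408418, 83300041 and 72303677 counts, so that Gfi1 and Muc2 were highest in KO 2 relative to depth. Which cells the Gfi1 counts came from was not tested.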

How the data were processed

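The authors deposited 1 table of raw counts per gene ID for the 12 libraries (poly(A) RNA, stranded kit, per the labels' protocols). STAR and GRCm38 (mm10) are named in the submitters' processing notes. The sources used here do not give the STAR version, counting tool, annotation or strand setting. Counts were in excess even (66.6 to 76.6% of counts from 1 to 20), as when both mates are counted, so a count is not 1 molecule. Symbols came from GENCODE M21, which matched 54042 of 54109 IDs. The 67 unmatched IDs held at most 0.00333% of the counts of a library. KO was compared with WT in the 6 libraries of each tissue, and tissues in a model of all 12, with edgeR 4.0.16 (TMM, filterByExpr at a minimum count of 10, robust quasi-likelihood test, Benjamini-Hochberg adjustment over all genes tested, adjusted p under 0.05) in R 4.3.3. DESeq2 1.42.0, other size factors, no filter, a replicate block and omission of each library were alternatives, and an omission of 2 libraries was added after the data were seen. The scripts were tested on simulated data. Values in every library were given for the best-known genes, and full statistics for the 5 genes of lowest p and up to 12 that passed in each comparison; values by library for Clec4e, Trem1, Acod1, Asprv1 and Mmp8 were added after they were seen. The genes and lists were chosen with earlier results of these data known. Not every pair of same-numbered libraries had a correlation of deviations from group means above 0.1, so the numbers were not used to pair libraries. Between KO and WT the correlations were -0.133 to 0.0416 in colon and -0.23 to 0.24 in LPMC. Between tissues they were all positive, 0.0807 to 0.163 in WT and 0.064 to 0.303 in KO. The tissue tests were therefore run unpaired although pairing by mouse remains possible, and the replicate block is given as an alternative. This block gives same-numbered WT and KO libraries a shared effect, so it does not pair libraries by mouse within a genotype. A fit with such a pairing was not run.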

Additional observations from a re-analysis of the deposited data

How the results depend on the processing

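Of the alternatives for the calls and medians of the neutrophil genes, 213 values kept to the main value and 6 did not. A count was kept when within 1.5 times, and a median when within the spread between libraries. That spread was 1.14 for the mature set and 0.818 for the immature set on the log2 scale. It was wider than the colon medians of -0.58 and -0.30 and the mature LPMC median of 0.95. The same held for both medians between tissues in WT (0.62 mature, 0.68 immature). It also held for the immature medians of the difference (0.65) and between tissues in KO (0.745). A fall to 0 or a change of sign within the spread counted as kept, so the kept values do not show that these medians held. The colon immature median, for instance, was 0.21 without colon KO 2 and was counted as kept. The count of 0 called genes between KO and WT held in both tissues, and in their difference, under every alternative run. Over all genes, DESeq2 called 33 in colon in place of 1, 34 in LPMC in place of 2, and 3 in place of 0 for the difference. In colon the immature median ranged from -0.80 to 0.62 over omissions of 1 library, and in LPMC from 0.00576 to 1.54. For LPMC WT against colon WT, DESeq2 called 13 genes in place of 8, beside 41.9% of all genes in place of 35.4%. Single omissions called 6 to 11, beside 25.2 to 38.7% of all genes, and the immature median ranged from -0.61 to 0.69. For LPMC KO against colon KO, DESeq2 called 22 in place of 14, beside 35.7% of all genes in place of 28.1%. Single omissions called 10 to 16, beside 16.7 to 28.9% of all genes. Omission of both colon KO 2 and LPMC KO 1 gave 8, beside 16.2% of all genes. Single genes whose sign changed had not passed in the comparison concerned. Over omissions of 1 library, the colon values ranged from -1.14 to 0.43 for Camp, -2.14 to 1.51 for Ngp and -0.81 to 0.18 for S100a8. In LPMC they ranged from -1.36 to 2.01 for Camp and -0.30 to 2.34 for Ltf, and Camp ranged from -0.68 to 2.69 for the difference of the KO effects. Between tissues, Camp ranged from -1.46 to 0.13 in WT and -1.65 to 1.71 in KO, S100a9 from -0.89 to 0.11 in WT, and S100a8 from 0.16 to 1.28 in KO. Omission of both colon KO 2 and LPMC KO 1 gave -0.45 for Camp in the difference, and -1.43 for Camp and -0.31 for S100a8 in KO, where the replicate block gave -0.11 for Camp. The cause of these changes was not tested.

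With the replicate number as a block shared by WT and KO, 0, 0 and 0 of the neutrophil genes were called for colon, LPMC and their difference. Between tissues, 8 (not the same 8, since Padi4 was lost) and 16 were called in WT and KO. Over all genes the block gave 0, 0 and 0 calls, then 6866 (32.7%) and 5405 (25.8%). The correlations of same-numbered libraries between tissues were 0.0807 to 0.163 in WT and 0.064 to 0.303 in KO, all positive and not all above 0.1, and the labels do not tell whether they come from the same mouse. Between tissues, 6 of 6 WT and 3 of 6 KO libraries correlated best with the library of their own number, as did 1 of 6 between KO and WT in either tissue. Depth limits Mpo, Elane, Ctsg, Fcnb and Stfa2, whose levels lay within a few counts of 0 in many libraries: a difference there was not detectable at this depth. With 3 libraries a group, SEs of the mature genes between KO and WT were often near 1 on the log2 scale.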
